A study of Rattus norvegicus with 12 samples.

Results

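Active zone genes encode the proteins that hold synaptic vesicles at the presynaptic release site and make them ready to fuse. A total of 8 such genes were taken by symbol: the scaffold genes Bsn and Pclo, the RIM genes Rims1 and Rims2, the priming factor genes Unc13a and Unc13b, and the complexin genes Cplx1 and Cplx2. Every probe set whose platform annotation gave exactly 1 of these symbols was used. All 8 genes were on the array, with 11 probe sets among 31042 in all, and with 8 of 14217 genes named by probe sets with a single symbol. Bsn, Pclo and Cplx1 had 2 probe sets each and the other 5 genes 1 each.

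The study asked which transcripts of the basolateral amygdala differ after a history of small sucrose snacks from those after water at the same times. The sucrose group had an additional bottle with up to 4 mL of 30% sucrose 2 times a day for 14 days, and the control group had the same access to a bottle of water. Both groups were male Long-Evans rats of 2 to 3 months that were housed singly, weighed 225 to 250 g and kept chow and water throughout, and brains were taken on the morning of day 15. Each array holds the tissue of both sides from 2 rats of a group, so that 24 rats gave 12 arrays, 6 sucrose and 6 control, and the pool is the unit of replication.

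The basolateral amygdala is built mainly from glutamatergic projection neurons with a smaller set of local GABAergic neurons, and its synapses carry plasticity that ties cues to reward or threat. At the active zone the scaffolds bassoon and piccolo, among the largest proteins of the synapse, gather vesicles over the release site. RIM proteins link the vesicle GTPase Rab3, Munc13 proteins and calcium channels, Munc13 proteins open syntaxin so that SNARE complexes can form, and complexins bind assembled SNARE complexes and both hold back and promote fusion. These transcripts are made in the cell body, so RNA from amygdala tissue reports on neurons located there and not on the terminals of axons that arrive from elsewhere.

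All values are ratios: for each probe set the deposited value is the signal of an array over the mean of the 6 control arrays. A ratio keeps no level, so the genes cannot be ranked by abundance, markers of a tissue or cell type cannot be called present or absent, and a probe set with weak signal cannot be recognised. Each difference is a log2 value (sucrose minus control) and comes with the standard error (SE) and 95% interval of a limma fit over all 31042 probe sets and n = 6 pools a group. In bulk tissue, fewer cells of a type and less RNA per cell cannot be told apart. The median ratio of the arrays ran from 0.989 to 1.002. Sucrose array 1 stood apart in other measures: its spike-in probe sets were the brightest (0.183 in log2), the lowest 3-prime minus 5-prime signal of the integrity probe sets (-0.137), and the highest mean of astrocyte (0.41), pallial excitatory neuron (0.18) and choroid plexus markers (1.72). It also had the lowest mean of striatal and central amygdala markers (-0.29) and the highest mean of the active zone genes themselves (0.191).

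No active zone probe set passed the test at an adjusted p of 0.05, and no probe set of the whole table did. With their unadjusted p as a description, 4 of the 11 were higher after sucrose at p under 0.05 and 0 were lower. These were 1 probe set each of Pclo, Bsn, Cplx2 and Rims2. Over all probe sets 4.50% were higher and 3.07% lower by that criterion (7.57% in all, 2351 probe sets). The median difference was 0.048 over the 11 probe sets and -0.005 over all 31042, with 7 of 11 above 0 against 45.7% of all. The members were chosen with earlier results of these data known, so these counts carry no test of the group. By the exact permutation test over all assignments of the arrays, 4 of 11 had an unadjusted p under 0.05, against 7.25% of all probe sets. A log2 difference of at least 0.2 was reached by 3 of 11, against 1.91% of all. In none of the 11 did the sucrose and control arrays separate completely, which 0.425% of all probe sets did. The authors' deposited table of 145 probe sets, beside 31042 tested here, lists 0 of the 11. The probe sets it lists as higher in sucrose have mean ratios of at least 1.198. Among the 11 the highest mean ratios in sucrose arrays were 1.19 (Cplx2), 1.18 (Pclo 1398271_at) and 1.17 (Bsn 1369819_at), below that value.

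**Figure D1:**
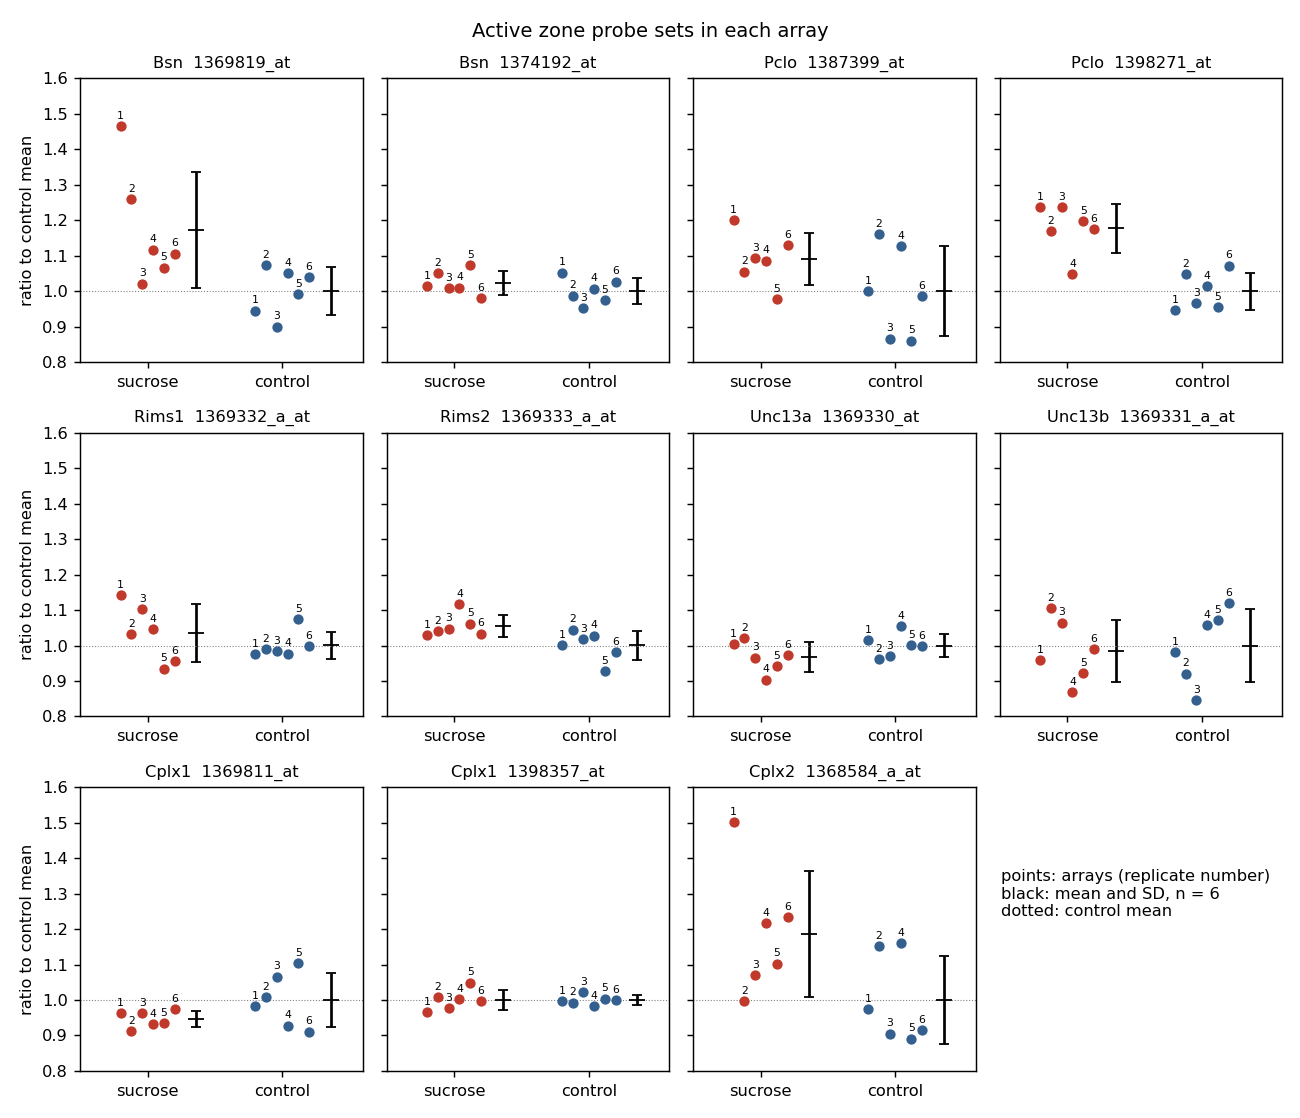
Ratio of each array to the control mean (vertical axis, no unit) for the 11 active zone probe sets, with 6 sucrose arrays in red left of 6 control arrays in blue, replicate numbers above the points, and mean ± SD in black. For Pclo 1398271_at 5 of 6 sucrose arrays lie above all controls (1.05 to 1.24 against 0.95 to 1.07), and sucrose array 1 stands at 1.466 for Bsn 1369819_at and 1.502 for Cplx2.

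Pclo encodes piccolo, the scaffold that also helps assemble presynaptic actin, and its probe set 1398271_at had the lowest p of all members. It read 1.05, 1.19 and 1.24 (lowest, median and highest ratio) in sucrose arrays, against 0.95, 0.99 and 1.07 in control arrays. Of the 6 sucrose arrays 5 lay above all controls, and sucrose array 4 (1.049) was the exception, between control arrays 2 (1.047) and 6 (1.072). The mean ratio was 1.18 ± 0.07 in sucrose and 1.00 ± 0.052 in control arrays (SD, n = 6 each). The difference was 0.23 ± 0.05 (SE; 95% interval 0.13 to 0.33; limma adjusted p = 0.269), a fold of 1.18, and it ranked at position 21 of the 31042 p-values. The exact permutation test gave p = 0.00433, two-sided, with an adjusted p of 0.516 over the whole table.

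The other Pclo probe set, 1387399_at, overlapped between the groups across most of its range. It read 0.98, 1.09 and 1.20 in sucrose arrays, against 0.86, 0.99 and 1.16 in control arrays, and differed by 0.13 ± 0.08 (95% interval -0.03 to 0.29; limma adjusted p = 0.743). Control arrays 2 and 4, at 1.160 and 1.127, were as high as the upper sucrose arrays, while control arrays 3 and 5 stood at 0.866 and 0.860. Both Pclo probe sets were thus higher on average after sucrose. With their mean as the gene value the difference was 0.183 (limma adjusted p = 0.467). The contrast of the 2 probe sets was tested between groups on the log2 value of 1398271_at minus that of 1387399_at in each array. It was 0.11 ± 0.12 in sucrose and 0.01 ± 0.15 in control arrays (SD), higher by 0.10 (95% interval -0.07 to 0.28; exact permutation p = 0.221; adjusted p = 0.386 over the 7 such tests made), and by 0.068 without sucrose array 5.

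Bsn encodes bassoon, the paralog of piccolo, which also restrains the breakdown of presynaptic proteins. Probe set 1369819_at read 1.02, 1.11 and 1.47 in sucrose arrays, against 0.90, 1.02 and 1.07 in control arrays. Sucrose arrays 1 (1.466) and 2 (1.259) were the 2 highest of the 12, and 4 of 6 sucrose arrays lay above all controls. The difference was 0.22 ± 0.08 (95% interval 0.05 to 0.39; limma adjusted p = 0.55; exact permutation p = 0.0173), and it was 0.155 without sucrose array 1. With the mean of the pallial excitatory neuron markers as a covariate it was 0.151. Those markers were measured for 9 of 10 genes, and their mean per array ran from -0.03 to 0.18 in sucrose and from -0.07 to 0.08 in control arrays, highest in sucrose array 1. Their part in the result was not tested beyond this covariate.

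The second Bsn probe set, 1374192_at, read 0.98, 1.01 and 1.07 in sucrose arrays, against 0.95, 1.00 and 1.05 in control arrays. Its difference was 0.03 ± 0.03 (95% interval -0.04 to 0.10; limma adjusted p = 0.871), so that the groups overlapped nearly throughout. With the mean of both Bsn probe sets as the gene value the difference was 0.127 (limma adjusted p = 0.555). The difference of the first over the second Bsn probe set was 0.19 ± 0.20 in sucrose and 0.00 ± 0.10 in control arrays (SD), higher by 0.19 (95% interval -0.02 to 0.40; exact permutation p = 0.0563; adjusted p = 0.197). Without sucrose array 1 that contrast was 0.120 (exact permutation p = 0.102). Bsn (1369819_at) and Pclo (1387399_at), each by its probe set of highest variance, differed from each other by 0.09 in their response (95% interval -0.09 to 0.27; exact permutation p = 0.294; adjusted p = 0.412), and by 0.052 without sucrose array 1 or 0.059 without sucrose array 2. The contrast of Bsn with Pclo 1398271_at was not tested. That Pclo probe set differed by 0.23 between the groups, close to the 0.22 of Bsn 1369819_at.

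RIM genes showed smaller differences. Rims2 (1369333_a_at) read 1.03, 1.04 and 1.12 in sucrose arrays, against 0.93, 1.01 and 1.04 in control arrays. Its 6 sucrose arrays all lay above 1 and above the control median, and 3 of them above all controls. The difference was 0.08 ± 0.03 (95% interval 0.00 to 0.15; limma adjusted p = 0.64; exact permutation p = 0.013). Control array 5, at 0.928, was the lowest of the 12, and the difference was 0.056 without it.

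Rims1 (1369332_a_at), whose protein is the best studied member of the family in presynaptic plasticity, read 0.94, 1.04 and 1.14 in sucrose arrays, against 0.97, 0.99 and 1.07 in control arrays. Sucrose arrays 1 and 3 (1.143 and 1.102) lay above all controls and sucrose arrays 5 and 6 (0.935 and 0.956) below all of them. The difference was 0.05 ± 0.05 (95% interval -0.06 to 0.15; limma adjusted p = 0.869). It was 0.019 without sucrose array 1, 0.029 without sucrose array 3 and 0.077 without sucrose array 5. The Rims2 response exceeded that of Rims1 by 0.03 (95% interval -0.12 to 0.18; exact permutation p = 0.673; adjusted p = 0.693).

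The Munc13 genes lay at or slightly below the control mean. Unc13a (1369330_at), which encodes the main priming isoform of forebrain glutamatergic synapses, read 0.90, 0.97 and 1.02 in sucrose arrays, against 0.96, 1.00 and 1.05 in control arrays. Sucrose arrays 4 and 5 (0.904 and 0.943) lay below all controls, and the difference was -0.05 ± 0.04 (95% interval -0.12 to 0.03; limma adjusted p = 0.822), or -0.027 without sucrose array 4. Unc13b (1369331_a_at), whose product primes vesicles in a subset of synapses, read 0.87, 0.97 and 1.11 in sucrose arrays, against 0.85, 1.02 and 1.12 in control arrays. Its groups overlapped throughout, with a difference of -0.02 ± 0.07 (95% interval -0.18 to 0.14; limma adjusted p = 0.973). These intervals put the fold of sucrose over control for Unc13a between 0.92 and 1.02, and for Unc13b between 0.88 and 1.10. The responses of Unc13a and Unc13b differed by -0.03 (95% interval -0.17 to 0.12; exact permutation p = 0.693; adjusted p = 0.693).

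Complexins gave the widest contrast within a family. Cplx2 (1368584_a_at), in rodent forebrain found mostly in glutamatergic neurons, read 0.998, 1.16 and 1.502 in sucrose arrays, against 0.89, 0.95 and 1.16 in control arrays. Sucrose array 1 was the highest, sucrose array 2 the lowest of its group and lay among the controls, and control arrays 2 and 4 (1.152 and 1.161) lay among the sucrose arrays. The difference was 0.24 ± 0.10 (95% interval 0.03 to 0.45; limma adjusted p = 0.596; exact permutation p = 0.0498), a fold of 1.18, and 0.173 without sucrose array 1. The mean of the astrocyte markers (8 of 8 genes measured, each by its probe set of highest variance) ran from 0.10 to 0.41 in sucrose arrays. In control arrays it ran from -0.24 to 0.09, with sucrose array 5 (0.098) just above control array 2 (0.088). Of the 19 astrocyte probe sets 0 separated the groups, against 0.425% of all. At an unadjusted limma p under 0.05, 4 were higher and 0 lower, against 4.50% and 3.07% of all. The mean of the oligodendrocyte markers (9 of 10 genes) ran from -0.17 to 0.44 in sucrose and from -0.11 to 0.09 in control arrays. The part of the astrocyte markers was not tested.

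Cplx1, in rodent forebrain found more in inhibitory neurons, differed less between the groups. Its probe set 1369811_at read 0.91, 0.95 and 0.98 in sucrose arrays, against 0.91, 1.00 and 1.10 in control arrays. All 6 sucrose arrays lay below 1, yet control arrays 4 and 6 (0.928 and 0.911) were as low, and the difference was -0.08 ± 0.05 (95% interval -0.18 to 0.02; limma adjusted p = 0.768), or -0.046 without control array 5. Probe set 1398357_at varied least of all members, at 0.97, 1.00 and 1.05 in sucrose arrays, against 0.98, 1.00 and 1.02 in control arrays, with a 95% interval of -0.06 to 0.06 for the difference. Cplx2 minus Cplx1 (1369811_at) was 0.31 ± 0.19 in sucrose and -0.01 ± 0.24 in control arrays (SD). That contrast was larger after sucrose by 0.32 (95% interval 0.04 to 0.60; exact permutation p = 0.0325; adjusted p = 0.197), with all 6 sucrose arrays above the control mean, and so failed the correction over 7 tests. Leaving out single arrays gave 0.254 to 0.385 (exact permutation p = 0.0108 to 0.0693), lowest without sucrose array 1. The contrast of Cplx2 with Cplx1 1398357_at was not tested. The 4 tests between paralogs were chosen after the values had been seen.

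**Figure D2:**
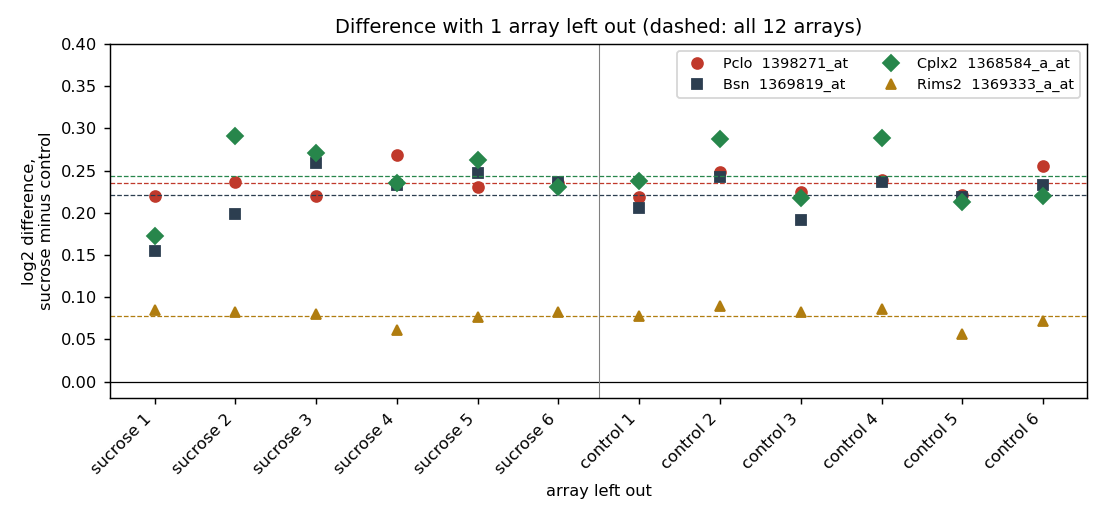
Log2 difference, sucrose minus control (vertical axis), of the 4 probe sets with the lowest p when each array named on the horizontal axis was left out; dashed lines give the value with all 12 arrays. Pclo 1398271_at stayed between 0.219 and 0.268, while Bsn 1369819_at was 0.155 and Cplx2 0.173 without sucrose array 1.

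The start regions of Bsn, Pclo, Cplx2 and Cplx1 are shown because the first 3 had the largest differences and Cplx1 is the paralog of Cplx2. They are RefSeq sequences of build GRCr8, 250 bases before to 50 after a start listed for the gene, read 5′ to 3′ on the strand of the gene. That start is the 5′ end of the annotated gene for Bsn and Cplx1, and is not for Pclo and Cplx2. Capitals mark the GC box, the letters GGGCGG or their complement on the other strand.
Bsn (chr8:117754363-117754662, minus strand): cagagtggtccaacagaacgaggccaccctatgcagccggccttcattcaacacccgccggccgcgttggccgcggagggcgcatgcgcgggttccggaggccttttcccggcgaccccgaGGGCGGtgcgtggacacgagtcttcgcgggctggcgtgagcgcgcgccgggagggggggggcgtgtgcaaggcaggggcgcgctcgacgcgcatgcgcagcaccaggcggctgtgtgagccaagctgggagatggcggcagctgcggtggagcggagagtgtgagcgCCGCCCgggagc
Pclo (chr4:21005062-21005361, minus strand): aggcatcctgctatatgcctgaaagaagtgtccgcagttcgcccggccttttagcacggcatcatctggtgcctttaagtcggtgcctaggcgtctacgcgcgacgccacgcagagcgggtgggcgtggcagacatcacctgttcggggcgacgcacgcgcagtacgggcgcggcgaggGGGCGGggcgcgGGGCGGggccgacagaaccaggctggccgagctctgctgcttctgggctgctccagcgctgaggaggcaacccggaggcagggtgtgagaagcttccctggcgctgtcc
Cplx2 (chr17:10236704-10237003, minus strand): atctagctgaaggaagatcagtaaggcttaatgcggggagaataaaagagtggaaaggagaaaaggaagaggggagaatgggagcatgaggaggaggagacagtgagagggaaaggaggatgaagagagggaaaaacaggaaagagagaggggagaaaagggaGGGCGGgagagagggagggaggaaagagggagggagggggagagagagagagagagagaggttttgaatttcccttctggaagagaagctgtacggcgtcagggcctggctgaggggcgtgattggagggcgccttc
Cplx1 (chr14:1328823-1329122, plus strand): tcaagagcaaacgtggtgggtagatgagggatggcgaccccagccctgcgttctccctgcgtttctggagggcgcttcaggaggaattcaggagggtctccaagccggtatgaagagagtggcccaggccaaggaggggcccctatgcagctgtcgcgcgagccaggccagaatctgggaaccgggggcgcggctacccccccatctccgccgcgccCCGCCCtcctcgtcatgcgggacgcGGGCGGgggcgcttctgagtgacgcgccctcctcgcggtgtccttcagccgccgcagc

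The RefSeq table held a start region for 7 of the 8 genes, with 2 for Unc13b, and Rims2 is named only. The Cplx2 region, at a start away from the 5′ end of the gene, had a CpG count of 6 with 54% G and C. The Cplx1 region, at the 5′ end of its gene, had 28 CpG and 68.7%, so the paralogs' values are not from like positions. Pclo had 31 CpG and 67.7%, and Bsn 39 and 73%. The medians over 33469 start regions of that length were 7 CpG and 51.7%. The GC box was found 2 times in Bsn, in Pclo and in Cplx1 and 1 time in Cplx2, and it occurs on either strand in 33.1% of all start regions. The core of the cAMP response element, TGACG on either strand, was found 2 times in Cplx1, 1 time in Cplx2 and 3 times in Unc13a, and 21.2% of all start regions hold it. The full element TGACGTCA (1.83% of all) and the TATA box letters TATAAA (14.2% of all) were found in none of the 8 regions. Such matches describe letters only.

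Across arrays the members did not vary as a unit. After removal of each group's mean, the log2 ratios of the 28 gene pairs, each gene by its probe set of highest variance, correlated with a median r of 0.12 over 12 arrays, with 17 pairs above 0 and 11 below. Pclo (1387399_at) and Cplx2 followed each other most closely (r = 0.81, and 0.82 without sucrose array 1). The other Pclo probe set, 1398271_at, did not follow Cplx2 in this way (r = 0.21, and 0.02 without sucrose array 1). Pclo 1387399_at and Cplx2 were both high in control arrays 2 and 4 and low in control arrays 3 and 5. Unc13a and Unc13b came next (r = 0.69), then Bsn with Cplx2 (r = 0.60, but 0.24 without sucrose array 1). Among the 28 pairs Rims2 and Unc13b ran most opposite (r = -0.60). Over all 11 probe sets the lowest r was -0.71, for Pclo 1387399_at with Cplx1 1398357_at. Probe sets of a single gene shared little, with r = 0.40 for Pclo, 0.09 for Bsn and 0.09 for Cplx1. The arrays share their normalization, so these values are a description.

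**Figure D3:**
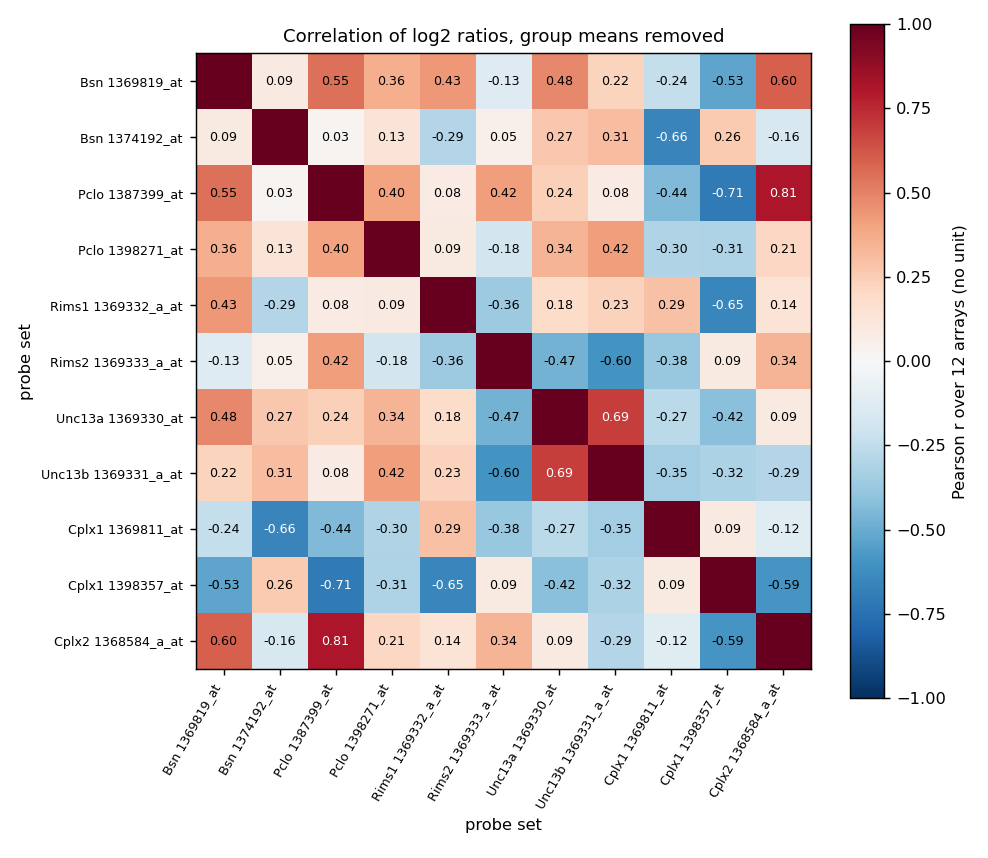
Pearson correlation over 12 arrays (colour and number, no unit) between the log2 ratios of the 11 active zone probe sets on both axes, after each group's mean was removed. Pclo 1387399_at and Cplx2 (0.81) and Unc13a and Unc13b (0.69) are high, while the pairs of probe sets for Bsn and for Cplx1 stand at 0.09.

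By the same measure over 12 arrays, the genes outside the group most like each member were as follows. Spats2l (r = 0.97), the kinesin motor gene Kif5c (0.94) and Med13l (0.94) were most like Bsn. Zfp292, U2surp (both 0.97) and the microglial receptor gene P2ry12 (0.95) were most like Pclo (1387399_at). Cdc23 (0.97), Zfp91 (0.96) and Rps6ka5 (0.94) were most like Cplx2. For Cplx1 (1369811_at) they were Gemin6 (0.95), Lst1 and the clock gene Per2 (both 0.94), and for Rims2 Tmem9 (0.93), Hnrnpul1 and Slc38a10 (both 0.92). Bud31 (0.91), LOC102553902 (0.90) and Klhl26 (0.89) stood nearest to Rims1. Igf1, Ints14 (both 0.88) and Col27a1 (0.84) were nearest to Unc13a, and Pde4a (0.88), Proser2 and Trmt6 (both 0.87) to Unc13b. Nothing further is read from these names, each the top of a search over the whole array.

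Other genes of the release site were read from a list of 32, of which 25 were measured by 44 probe sets. Of these probe sets 2 were higher and 2 lower at an unadjusted p under 0.05, 23 lay above 0 and 21 below, the median difference was 0.004, and 0 passed adjustment (lowest limma adjusted p = 0.586). The 9.09% with an unadjusted p under 0.05 stand beside 7.57% of all probe sets. The scaffold partners, the largest subgroup with 18 probe sets, held 3 of the 4 such probe sets, 2 higher and 1 lower. The fusion machinery held 1 among 11, the priming and complexin relatives 0 among 8 and the calcium channel subunits 0 among 7.

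On the higher side, Ppfia2, which encodes a liprin-alpha that recruits RIM and synaptic vesicles, read 1.02, 1.08 and 1.14 in sucrose arrays, against 0.89, 1.01 and 1.07 in control arrays (difference 0.12 ± 0.05; limma adjusted p = 0.603). Cask (1371177_a_at), a presynaptic scaffold kinase gene, differed by 0.21 ± 0.10 and its other probe set by 0.05 ± 0.03. The calcium sensor gene Syt1 differed by 0.17 ± 0.08, and Nsf, whose ATPase takes SNARE complexes apart, by 0.11 ± 0.05, 0.06 ± 0.04 and 0.01 ± 0.03 over its 3 probe sets. The limma adjusted p of Cask (1371177_a_at), Syt1 and Nsf (1369689_at) was 0.65, 0.659 and 0.681.

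On the lower side, Stx1a, the syntaxin that Munc13 proteins open, read 0.83, 0.91 and 0.97 in sucrose arrays, against 0.90, 1.01 and 1.09 in control arrays for probe set 1387359_at. It differed by -0.15 ± 0.06 (limma adjusted p = 0.586), and its second probe set by -0.09 ± 0.05. The liprin gene Ppfia3 differed by -0.09 ± 0.04 (limma adjusted p = 0.601), the N-type calcium channel gene Cacna1b (1371175_a_at) by -0.07 ± 0.04 and the vesicle GTPase gene Rab3a (1369816_at) by -0.10 ± 0.07. The groups overlapped in all 44 probe sets, and only 0.425% of all probe sets separated them completely. The release site list thus had differences of both signs, from -0.15 to 0.21, without a common direction. Those of the members ran from -0.08 to 0.24, with a median of 0.048 against 0.004.

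**Figure D4:**
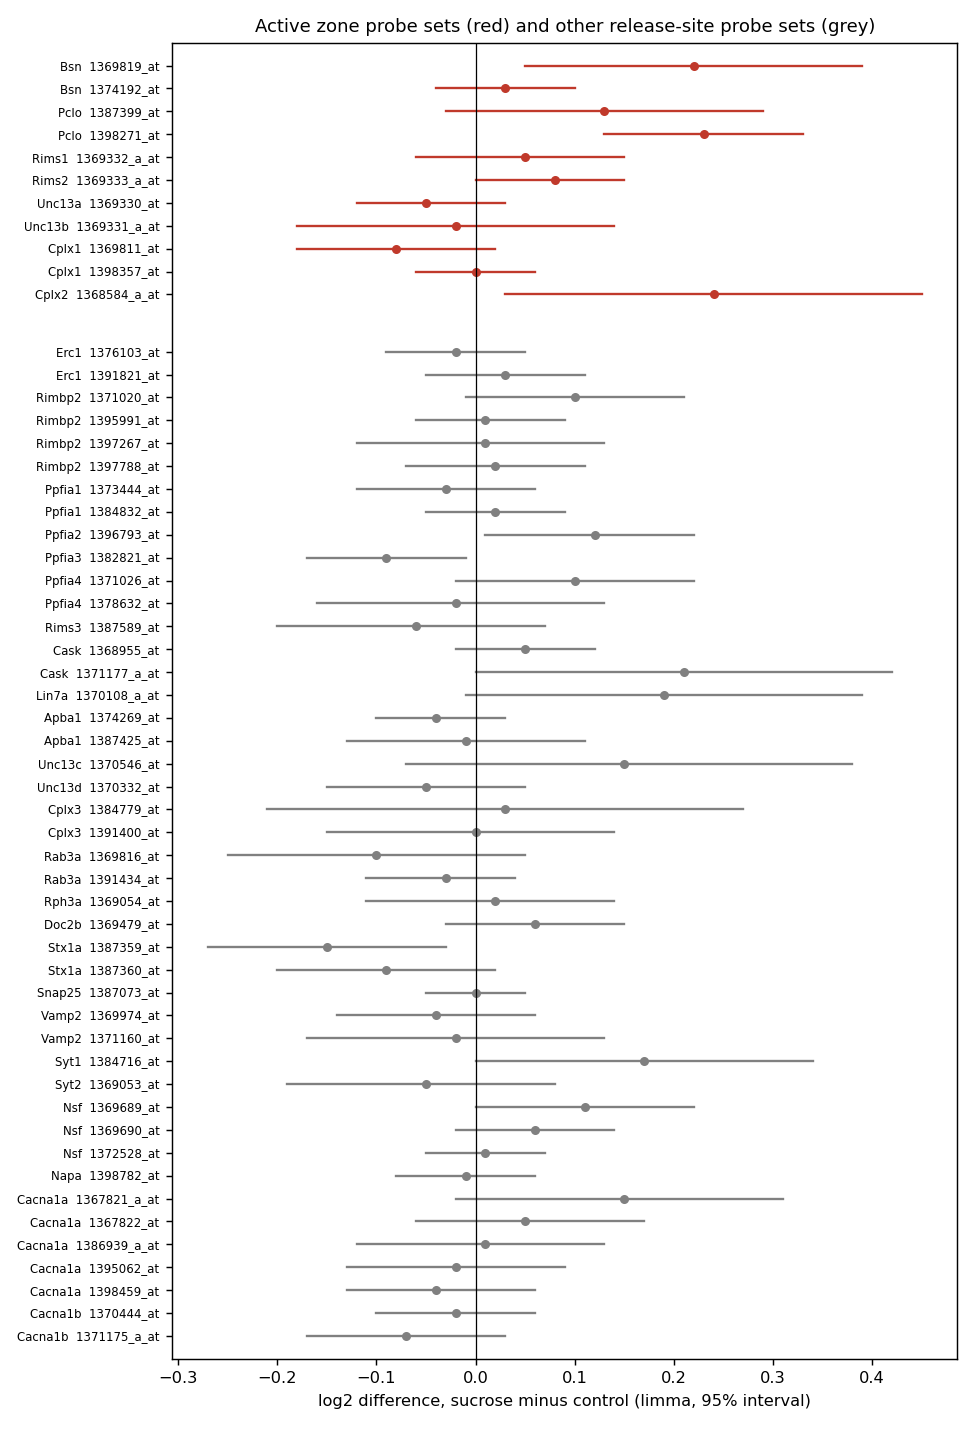
Log2 difference, sucrose minus control, with its 95% limma interval (horizontal axis) for the 11 active zone probe sets in red and 44 probe sets of other release-site genes in grey. The intervals of Bsn 1369819_at, Pclo 1398271_at, Cplx2 and Ppfia2 lie above 0, and those of Rims2 and Cask 1371177_a_at start at 0.00. Those of Stx1a 1387359_at and Ppfia3 lie below 0, and most others cross 0.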

How the data were processed

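The deposited value table holds linear ratios for 31099 probe sets of an Affymetrix rat array in 12 samples. The submitters' processing notes name RMA, with no version, and a further division by the control mean was read from the values (mean of the controls equal to 1 within 2.0e-07). The authors' deposited table of 145 probe sets gives p-values and mean ratios, per the file headers with no test named there. Here 57 manufacturer control probe sets were left out, and log2 ratios of the other 31042 entered a limma model (version 3.58.1, R 4.3.3) with the group alone, moderated by eBayes and adjusted by Benjamini-Hochberg over all probe sets (threshold 0.05). Of these, 20826 had 1 gene symbol, 436 several and 9780 none. Tests of single values and of probe set pairs were exact permutation tests over all assignments of the arrays, two-sided. The intervals of the probe set pairs use the Welch standard error, and those of single probe sets come from the limma fit.

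Simulated data with the spread of these arrays tested the procedure. Of 50 probe sets changed by 0.25 it called 30, and of 50 changed by 0.5 all 50, with 14 calls among the unchanged ones. The same simulated table held 50 probe sets changed by 1 and 50 changed by 2, all called. Such large changes make the adjustment less strict for the smaller ones. The 30 of 50 is therefore not the power of the fit to the real arrays. In that fit 0 probe sets were called, and Pclo 1398271_at, at 0.23, had a limma adjusted p of 0.269. No filter on low signal is possible on ratios, and the number of arrays limits the precision. The members and lists were chosen with earlier results of these data known. Named were all 8 members, the 4 release-site genes of lowest p in each direction and the 3 genes most correlated with each member. Alternatives were a replicate block, other normalizations, variance priors, array weights, covariates, other scales and tests, and leaving out each array.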

Additional observations from a re-analysis of the deposited data

Results flagged for a closer look

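Dixon's ratio of gap to range (95% critical value 0.625 for 6 arrays) picked out single arrays. Chance alone flags about 1 group in 20, and 3 of 42 groups of 6 met it. For Pclo 1398271_at sucrose array 4, at 0.069 on the log2 scale, lay below the other sucrose arrays, and the difference without it was 0.268. For Rims1 control array 5, at 0.102, lay above the other controls. The mean of the astrocyte markers in sucrose array 1 was 0.409, above the other sucrose arrays.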

How the results depend on the processing

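The call of 0 of 11 active zone probe sets at an adjusted p of 0.05 held in all 26 alternatives, and the unadjusted p of Pclo 1398271_at stayed under 0.05 in each of those fitted per probe set. Of all probe sets tested, 1 was called with the oligodendrocyte covariate, and 0 to 1 when arrays were left out. The 4 member probe sets under 0.05 became 2 with the oligodendrocyte covariate (Bsn and Pclo) and 2 with the pallial neuron covariate (Pclo and Rims2), and 2 to 5 when arrays were left out, with 2 without control array 5. Cplx2 was also lost with array weights and the Welch test, and Rims2 with the spike-in covariate, second quantile normalization and the replicate block. Rims2 was lost as well without control array 1, 5 or 6 or sucrose array 2, 3, 4 or 5. Cplx2 was lost without control array 3, 5 or 6 or sucrose array 1. With arrays left out, the highest limma p was 0.103 for Rims2 and 0.0581 for Cplx2, against 0.0355 for Bsn 1369819_at and 0.000634 for Pclo 1398271_at. Differences near 0 changed sign: Rims1 with the pallial covariate (-0.012), Unc13b with the oligodendrocyte covariate (0.033), and Cplx1 1398357_at with array weights (0.004), median centring (0.003), the pallial (0.016), integrity (0.004) and spike-in (0.006) covariates and a second quantile normalization (0.003). Leaving out arrays gave -0.067 to 0.015 for Unc13b, -0.014 to 0.010 for Cplx1 1398357_at, -0.012 to 0.066 for Rims2 minus Rims1 and -0.061 to 0.012 for Unc13a minus Unc13b. The cause was not tested. With the replicate number as a block the member count was 3, with Pclo 1398271_at at 0.235 (adjusted p = 0.496) and 0 calls over the table. Same-numbered arrays correlated at -0.15 to 0.194 and 2 of 12 arrays correlated best with their own number. Replicate 4 (0.194) alone exceeded the limit of 0.1 set for pairing. Such correlations cannot show whether same-numbered pools were handled together, and that was not tested.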
